A study of Mus musculus with 18 samples.

Results

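Tnnt3 encodes the fast skeletal muscle form of troponin T, and its annotated transcripts differ mainly in which short exons they join. All 27 Tnnt3 rows were taken from a table of 113194 Ensembl transcripts. For each row, the level in TPM and the share of the summed Tnnt3 level were followed in every sample. TPM scales transcripts to a common total in each sample, but the study had rescaled these values between samples. Their sums therefore differed, from 833186 to 1143839 per sample. The gene was selected on its day 7 levels, because a minor transcript of it rose most at that day. Among the 27 rows, Tnnt3-214 had the largest mean log2 difference between the denervated and the sham side at day 7. Day 7 values are therefore given as a description, with no test, and tests were run on days 1 and 3 only. The 18 samples came from 9 adult mice of both sexes, whose strain and genotype are not stated for this experiment, with 3 mice at each of days 1, 3, and 7 after surgery. On the right face the facial nerve was cut at its buccal and superior marginal branches (denervated), and on the left face of the same mouse the skin was opened and closed over an uncut nerve (sham), so that both sides had surgery and no unoperated mouse was sampled. Each sample was a punch through the rostral whisker pad that took skin along with muscle, and the question addressed is how whisker pad muscle RNA differs after loss of its nerve.

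Troponin T ties the troponin complex to tropomyosin on the thin filament, where the complex lets calcium switch contraction on. The RNA of fast troponin T is among the most heavily spliced in muscle. Short exons near the 5′ end are joined in many combinations and set the length and charge of a variable stretch of the protein, and a pair of exons near the 3′ end are used one or the other. One of the 5′ exons, known as the fetal exon, is common in fetal and newborn muscle and is mostly skipped in adult fast muscle, and Mbnl1 is a known regulator of that skipping. The annotation used here does not name exons, so exons are called by their length.

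Tnnt3 lies on the plus strand at chr7:142498836-142516009 of GRCm38. Of its 27 rows, 23 are annotated as protein coding, 3 as retained intron, and 1 as processed transcript. The sequences below, from the GENCODE M21 transcripts, run from a 14-base exon to a 19-base exon (chr7:142501829-142508353, introns removed, 5′ to 3′, all coding in the protein-coding transcripts). They are shown because most differences among the abundant transcripts fall in them, and capitals mark the 39-base exon at chr7:142507750-142507788.
Tnnt3-214: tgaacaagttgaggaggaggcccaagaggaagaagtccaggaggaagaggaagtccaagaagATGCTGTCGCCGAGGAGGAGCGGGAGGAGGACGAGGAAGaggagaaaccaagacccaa
Tnnt3-202: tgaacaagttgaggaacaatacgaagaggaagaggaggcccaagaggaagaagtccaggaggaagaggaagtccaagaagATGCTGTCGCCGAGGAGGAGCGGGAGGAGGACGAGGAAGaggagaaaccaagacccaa
Tnnt3-215: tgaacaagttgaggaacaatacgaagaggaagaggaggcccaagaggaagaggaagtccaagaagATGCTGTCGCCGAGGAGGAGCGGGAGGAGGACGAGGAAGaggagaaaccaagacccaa
Tnnt3-225: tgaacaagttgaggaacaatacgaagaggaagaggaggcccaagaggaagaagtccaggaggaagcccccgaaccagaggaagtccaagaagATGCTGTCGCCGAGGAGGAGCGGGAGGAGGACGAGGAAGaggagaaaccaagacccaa
Tnnt3-213: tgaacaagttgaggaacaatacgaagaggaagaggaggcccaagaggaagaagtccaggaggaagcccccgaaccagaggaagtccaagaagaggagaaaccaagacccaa
Tnnt3-206: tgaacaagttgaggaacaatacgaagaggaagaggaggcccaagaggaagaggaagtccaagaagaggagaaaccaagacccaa
Tnnt3-201: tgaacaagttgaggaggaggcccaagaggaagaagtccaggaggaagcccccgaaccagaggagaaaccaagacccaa
Tnnt3-214 differed from Tnnt3-202 by 1 exon only, of 18 bases (chr7:142502740-142502757), which Tnnt3-214 lacks. Both hold the 39-base exon, which is in 7 protein-coding transcripts and in 9 members in all. Tnnt3-215 skips the upstream 15-base exon (chr7:142504250-142504264) and the 12-base exon (chr7:142505288-142505299), whereas Tnnt3-225 joins all 8 exons that occur in the sequences shown. Tnnt3-213 holds the same exons as Tnnt3-225 apart from the 39-base exon. Within this stretch, Tnnt3-206 has the exons of Tnnt3-215 without the 39-base exon, and Tnnt3-201 lacks the 39-base exon, the downstream 15-base exon, and the 18-base exon that Tnnt3-214 also lacks. Toward the 3′ end, 21 protein-coding transcripts hold 1 of a pair of 41-base exons (chr7:142513665-142513705 and chr7:142514326-142514366), which differ from each other at 23 positions, and no transcript holds both.

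**Figure D1:**
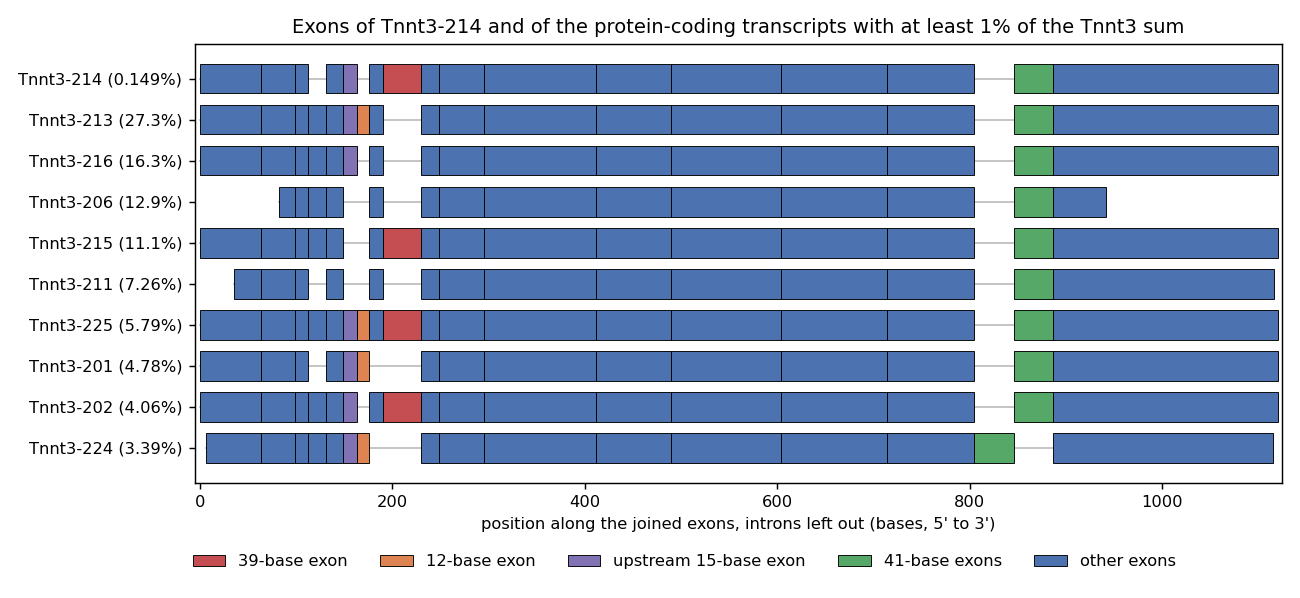
Exons of Tnnt3-214 and of the 9 protein-coding transcripts with at least 1% of the Tnnt3 sum, drawn to scale along the joined exons in bases with introns left out; the mean share over 18 samples is beside each name and thin lines span skipped exons. The 39-base exon appears in Tnnt3-214, Tnnt3-215, Tnnt3-225, and Tnnt3-202, and Tnnt3-214 differs from Tnnt3-202 by a single 18-base exon.

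Because the transcripts share most of their sequence, their separate levels are estimates. Of the 27 members, 18 contained no stretch of 31 bases that was absent from all other Tnnt3 members, and Tnnt3-214 was among these 18. Transcripts of other genes were not searched. In Tnnt3-214, 28 stretches of 31 bases are absent from Tnnt3-202 and 61 are absent from every Tnnt3 transcript without the 39-base exon. A total of 10 members had a mean share of at least 1%, and together they held 98.9% of the Tnnt3 sum, while 4 members were listed at 0 in all samples and 15 were above 0 in all samples. The files hold no read counts. Steps between the lowest values gave an estimated depth of 10300000 to 32300000 reads per sample, with 71.7 to 83.9% of the low values within 0.1 of a whole number of reads, so 1 read was worth about 0.0373 to 0.132 TPM of Tnnt3-214.

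All 8 markers of skeletal muscle fibers were above 1 TPM in every sample, as were all 6 of epidermis and hair follicle, so each punch held muscle and skin. The summed muscle markers ran from 3604 to 20285 TPM on the sham side at day 1 and from 14124 to 15726 TPM at day 3, against 5936 to 12355 TPM and 13515 to 16601 TPM on the denervated side. At day 7 they ran from 22613 to 24887 TPM on the sham side and from 16730 to 20427 TPM on the denervated side, with no overlap. Acta1, 1 of the 8 markers, went the other way at day 7, with 3624 ± 735 and 4633 ± 332 TPM (SD). It was higher in 3 of 3 mice, so the sum is not read as a uniform change of muscle RNA. Macrophage and other leukocyte markers, 4 of 6 above 1 TPM in all samples, summed to 168 to 488 TPM on the sham side and 1610 to 3217 TPM on the denervated side at day 7. The sides overlapped at day 1 (74.5 to 1209 and 177 to 2065 TPM) and at day 3 (156 to 679 and 643 to 1640 TPM). Satellite cell and myoblast markers, none of 5 above 1 TPM in all samples, summed to 5.08 to 7.05 TPM on the sham side and 54.4 to 131 TPM on the denervated side at day 3. The ranges were 1.32 to 4.54 and 15.4 to 25.9 TPM at day 1, and 7.82 to 13.1 and 33.1 to 37.1 TPM at day 7. Myod1, tested below with the genes of developing or denervated muscle, had means of 4.58 and 79.3 TPM on these sides at day 3. Whether fibers or satellite cells made this RNA was not tested, so the sum is not read as a number of cells. No marker of these lists was at 0 in all samples. The part of these cell types in the Tnnt3 values was not tested, and in a punch fewer fibers and less RNA per fiber cannot be told apart.

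Tnnt3-214 was near 0 on every sham side and was higher on the denervated side at days 3 and 7. At day 1, the 3 mice had 0, 1.33, and 0 TPM on the sham side and 0.0926, 1.45, and 1.75 TPM on the denervated side, and the groups overlapped. At day 3, the sham sides had 1.18, 0, and 1.94 TPM and the denervated sides 13.5, 16.7, and 16.4 TPM. All denervated samples of day 3 thus lay above all sham samples. At day 7, the values that led to the choice of this gene were 0.00038, 0, and 0.699 TPM on the sham side and 25.5, 35.9, and 45.5 TPM on the denervated side. The denervated level at day 7 was 35.6 ± 10.01 TPM (SD, n = 3), compared with 15.5 ± 1.76 TPM at day 3 and 1.10 ± 0.88 TPM at day 1. Even so, Tnnt3-214 was a small part of the gene, with 0.149% of the Tnnt3 sum on average and at most 0.581% in any sample.

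On the log2(TPM + 0.5) scale, which understates changes of low values, Tnnt3-214 differed between the sides at day 3 by 3.65 ± 0.577 (SE; limma, unadjusted p = 0.00063, adjusted p = 0.0913 over 32794 transcripts). It did not pass the adjusted threshold of 0.05, and over the 11 alternative settings the adjusted p ran from 0.0517 to 0.389, with 0.184 in the fit that blocked on mouse. In the same fit, 0.299% of all transcripts tested were called (98 of 32794), and none remained called with the mouse block or without any 1 of the 3 mice. At day 1, the difference was 0.84 ± 0.759 (SE, adjusted p = 1.0), and it was 0.17 without mouse 3 of day 1 and 1.76 with a pseudocount of 0.1. In that fit, 0% of 31981 transcripts were called, with 1338 at an unadjusted p under 0.05. With days 1 and 3 fitted together, the difference was 2.24 ± 0.639 (SE, unadjusted p = 0.00468, adjusted p = 0.407), against 0.0411% of transcripts called. The effect at day 3 exceeded that at day 1 by 2.81 on this scale, which did not pass the test of the difference (adjusted p = 0.613), and 0.00316% of transcripts passed it. Relative to the other transcripts of the gene, so that a change in the amount of muscle RNA cancels, Tnnt3-214 was higher at day 3 by 3.50 ± 0.596 (SE, unadjusted p = 0.000877, adjusted p = 0.389), with 0% of 26303 transcripts called and 1581 at an unadjusted p under 0.05.

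**Figure D2:**
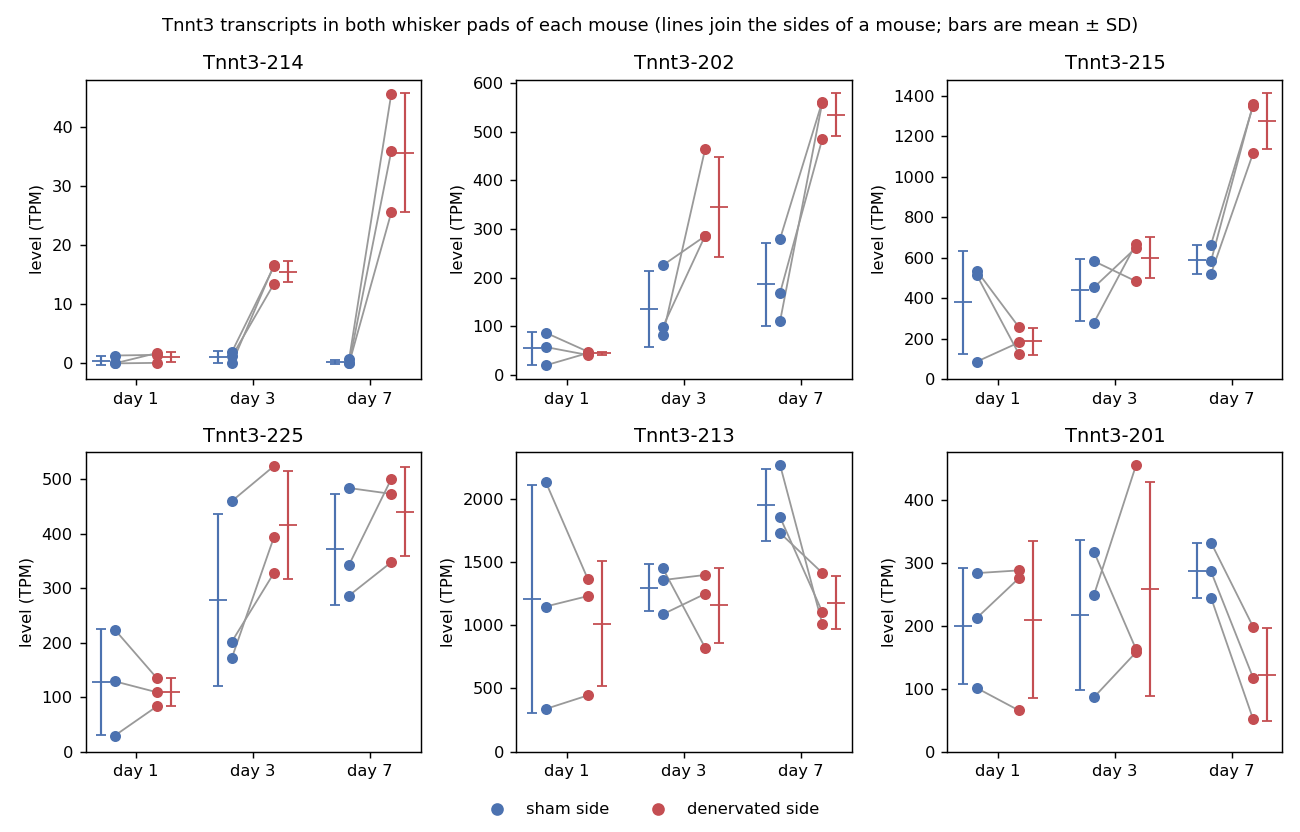
Levels in TPM of 6 Tnnt3 transcripts at days 1, 3, and 7, with a point for each sample, gray lines joining the sides of a mouse, and bars giving mean ± SD of 3 mice. Tnnt3-214 lies at 13.5 TPM or more on the denervated side at days 3 and 7 and under 2 TPM on the sham side, and Tnnt3-213 and Tnnt3-201 lie lower on the denervated side at day 7.

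Tnnt3-202, which also holds the 39-base exon, was far more abundant than Tnnt3-214. At day 3, it had 225, 98.5, and 81.3 TPM on the sham side and 285, 286, and 464 TPM on the denervated side. The denervated samples were all above the sham samples, and the difference was 1.46 ± 0.415 on the log2 scale (SE, limma, unadjusted p = 0.0118), but it did not pass after adjustment (adjusted p = 0.322) and was 0.94 without mouse 3 of day 3. At day 1, its levels were 19.2, 56.8, and 86.2 TPM on the sham side and 44.4, 40.4, and 47.3 TPM on the denervated side, with no common direction. At day 7, they were 279, 168, and 110 TPM against 562, 485, and 560 TPM. Its share of the Tnnt3 sum was 2.96 ± 1.31% on the sham side and 7.34 ± 0.57% on the denervated side at day 7 (SD, n = 3).

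Tnnt3-215, the most abundant transcript with the 39-base exon, had 665, 583, and 521 TPM on the sham side and 1353, 1359, and 1118 TPM on the denervated side at day 7. Its share at day 7 was 9.48 ± 0.99% and 17.6 ± 2.90%, the widest gap in share among the transcripts with this exon. At day 3, the sides overlapped, with 583, 453, and 277 TPM on the sham side and 483, 649, and 669 TPM on the denervated side, and the log2 difference of 0.51 ± 0.294 (SE) did not pass (limma, adjusted p = 0.633). It was 0.12 without mouse 3 and 0.89 without mouse 1 of day 3. At day 1, 2 of 3 mice had less Tnnt3-215 on the denervated side. Tnnt3-225 was higher on the denervated side in 3 of 3 mice at day 3, with 460, 202, and 172 TPM against 524, 328, and 395 TPM, but the groups overlapped and the log2 difference of 0.69 ± 0.395 (SE) did not pass (adjusted p = 0.622). It was 0.44 without mouse 3 of day 3. At day 7, its share was 6.01 ± 1.73% and 6.02 ± 0.94%, and the within-mouse difference was 0.0081 ± 0.870 percentage points (SD).

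Among the transcripts without the 39-base exon, Tnnt3-213 was the most abundant of the gene, with 27.3% of the sum on average. At day 7, it had 1856, 2270, and 1731 TPM on the sham side and 1107, 1013, and 1415 TPM on the denervated side, and its share was 31.3 ± 2.02% against 16.1 ± 1.84%. At day 1, by contrast, its share was 4.36 ± 1.69 percentage points higher on the denervated side (SD), in 3 of 3 mice. At day 3, the share differed by −6.57 ± 7.26 percentage points and the level did not pass the test (limma, adjusted p = 0.848). Tnnt3-201 had 286, 244, and 332 TPM on the sham side and 117, 51.3, and 198 TPM on the denervated side at day 7. Its log2 differences at day 1 (−0.08 ± 0.666, SE) and day 3 (0.26 ± 0.618, SE) were smaller than their errors.

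Tnnt3-206 and Tnnt3-216 also lack the 39-base exon. Unlike Tnnt3-213, Tnnt3-206 was higher on the denervated side in 3 of 3 mice at day 7, with 609, 730, and 977 TPM against 1450, 956, and 1772 TPM, and the groups overlapped. Tnnt3-206 has a short annotated last exon of 55 bases, as do 8 members in all. Tnnt3-216 held 18.9 ± 4.86% of the sum on the sham side and 18.3 ± 2.41% on the denervated side at day 7. Tnnt3-211, which skips 4 of the variable exons, took 29.1% of the sum on the sham side of mouse 1 at day 1 and 1.38 to 15.8% in the other 17 samples. That sample also had the lowest summed muscle markers (3604 TPM) and the lowest Tnnt3 sum (1481 TPM). Tnnt3-224, the only transcript over 1% with the upstream 41-base exon, ranged from 1.89 to 4.67% of the sum. The retained-intron transcript Tnnt3-221 had 231, 272, and 343 TPM on the sham side and 82.5, 175, and 222 TPM on the denervated side at day 1, and its log2 difference of −0.91 ± 0.380 (SE) did not pass (limma, unadjusted p = 0.0513, and 0.0116 blocked on mouse, with adjusted p = 1.0 and 0.887).

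**Figure D3:**
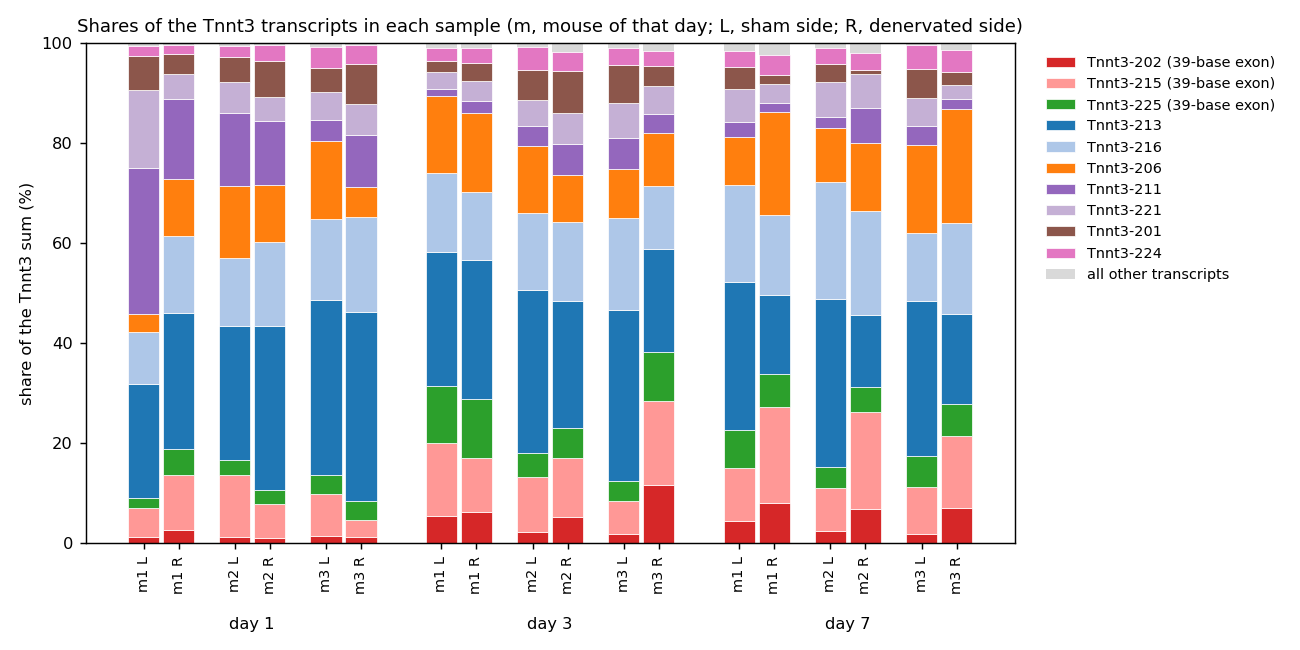
Share of the Tnnt3 sum in percent held by each transcript with a mean share of at least 1%, stacked for each of the 18 samples, with all other transcripts in gray. At day 7 the stack of Tnnt3-202, Tnnt3-215, and Tnnt3-225 is taller and that of Tnnt3-213 shorter on the denervated side of each mouse; mouse 1 of day 1 has the widest Tnnt3-211 band on its sham side.

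The remaining members were scarce. Tnnt3-210, which differs from Tnnt3-206 in its 41-base exon, was listed at 0 in 16 of 18 samples and at 37.8 and 32.0 TPM in 2 denervated samples of day 7. Those same samples had the highest values of Tnnt3-218, which also holds the upstream 41-base exon, at 5.13 and 4.63 TPM. At day 1, Tnnt3-217 had 5.13, 5.79, and 15.2 TPM on the sham side and 1.22, 1.27, and 1.45 TPM on the denervated side, with no overlap. The log2 difference was −2.18 ± 0.406 (SE, limma, unadjusted p = 0.00144), which did not pass after adjustment (adjusted p = 0.628), and at day 3 it was 0.23 ± 0.60.

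Counted over members, 16 of 27 passed the filter on low values (at least 1 TPM in 47% of the samples) at day 1 and at day 3, and none was called by limma in any fit of levels or of shares. At an unadjusted p under 0.05, 1 of 16 was lower at day 1 (Tnnt3-217), when 4.18% of all transcripts were under that value, and 2 of 16 were higher at day 3 (Tnnt3-202 and Tnnt3-214), when 10.3% were. Over both days 1 of 16 was under that value (Tnnt3-214; 6.99% of all transcripts), and for day 3 minus day 1 it was 2 of 16 (Tnnt3-214 and Tnnt3-217; 7.18%). By share, the counts were 3 of 16 at day 1 (Tnnt3-217, Tnnt3-223, and Tnnt3-227, all lower), 2 at day 3 (Tnnt3-202 and Tnnt3-214, higher), and 2 over both days (Tnnt3-214 and Tnnt3-220, higher), where 3.87%, 6.01%, and 4.56% of all transcripts were. Blocked on mouse, the counts of levels were 3 of 16 at day 1 (Tnnt3-217, Tnnt3-221, and Tnnt3-227, all lower; 5.28% of all transcripts) and 4 of 16 at day 3 (Tnnt3-202, Tnnt3-214, Tnnt3-220, and Tnnt3-225, all higher; 12.03%). They were 2 of 16 over both days (Tnnt3-214 and Tnnt3-220; 7.82%) and 4 of 16 for day 3 minus day 1 (Tnnt3-214, Tnnt3-217, Tnnt3-221, and Tnnt3-227; 9.55%), and no member passed after adjustment. At day 3, Tnnt3-202 and Tnnt3-214 were the members that passed the filter and whose denervated samples all lay above the sham samples. They were 12.5% of the members that passed, against 9.06% of all transcripts. At day 1, 2 of 16 lay entirely below (Tnnt3-217 and Tnnt3-221), as did 3.86% of all transcripts, and none entirely above (5.08%). At day 7, 6 of 18 members lay entirely above (Tnnt3-202, Tnnt3-214, Tnnt3-215, Tnnt3-219, Tnnt3-220, and Tnnt3-222) and 2 entirely below (Tnnt3-201 and Tnnt3-213), where 7.89% and 6.61% of all transcripts did. Tnnt3-214 and Tnnt3-222 were below 1 TPM on every sham side of day 7 and passed the filter through the denervated samples alone. Both therefore had to lie above. The day 7 contrast chose the gene, so nothing is read from those counts.

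The same data were summed by exon, as the share of the protein-coding Tnnt3 level carried by transcripts that hold it. For the 39-base exon, the share at day 1 was 10.7, 17.96, and 14.5% on the sham side and 19.9, 11.4, and 9.1% on the denervated side. At day 3, it was 32.7, 19.2, and 13.6% against 30.5, 25.1, and 41.3%, higher in 2 of 3 mice. At day 7, it was 24.6, 16.6, and 18.5% against 36.1, 34.3, and 29.3%, higher in 3 of 3 mice with no overlap. Over the 6 mice of days 1 and 3, the within-mouse difference was 4.77 ± 12.9 percentage points (SD), and it was higher in 3 of 6 mice. It did not pass an exact two-sided sign-flip permutation test (p = 0.469, adjusted p = 0.871 over 13 exon groups), for which the smallest possible p is 0.0313. Without mouse 3 of day 3, the difference was 0.184 percentage points. Within the transcripts with this exon, Tnnt3-214 made up at most 2.05% in any sample, and Tnnt3-215 from 36.9 to 74.0%.

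The 12-base exon had the widest gap at day 7. It was carried by 48.5, 48.2, and 50.7% of the protein-coding level on the sham side and by 29.7, 25.4, and 32.5% on the denervated side, a difference of −19.9 ± 2.52 percentage points (SD, n = 3). The upstream 15-base exon was carried by 74.9, 76.5, and 67.5% on the sham side and 55.4, 56.2, and 59.4% on the denervated side at day 7. At day 1, both exons differed the other way in 3 of 3 mice, by 5.13 ± 4.35 and 8.66 ± 3.1 percentage points. Over days 1 and 3, neither passed the exact sign-flip permutation test (p = 0.969 and p = 0.281 for the 12-base and the upstream 15-base exon). The choice between the 41-base exons hardly varied, with the downstream one at 95.2 to 96.8% in the group means. None of the 13 exon groups had an adjusted or unadjusted p under 0.05 in the exact test, the lowest being 0.0625.

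**Figure D4:**
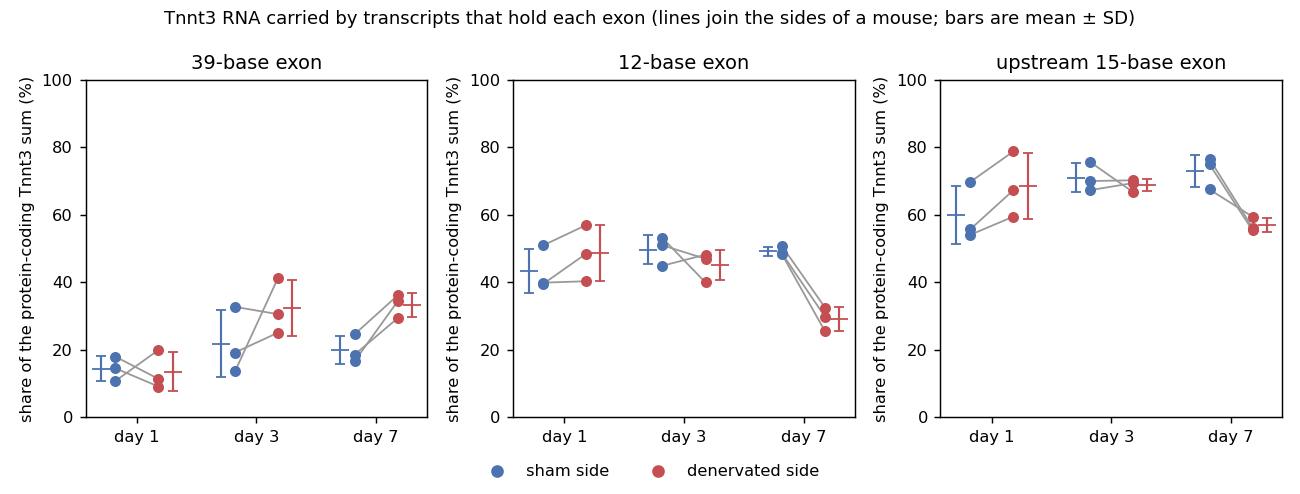
Percent of the protein-coding Tnnt3 level carried by transcripts with the 39-base, the 12-base, or the upstream 15-base exon, with a point per sample, lines joining the sides of a mouse, and bars giving mean ± SD of 3 mice. At day 7 the 39-base exon is higher and the other exons shown are lower on the denervated side of every mouse, whereas at day 1 the 39-base exon has no common direction and the other exons shown are higher.

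The summed Tnnt3 level passed no test at day 1 or day 3. It was 1481, 4314, and 6080 TPM on the sham side and 1636, 3772, and 3613 TPM on the denervated side at day 1, and 4045, 4168, and 4246 TPM against 4486, 5495, and 3993 TPM at day 3. The differences were −0.27 ± 0.597 and 0.15 ± 0.169 on the log2 scale (SE; limma on gene sums, adjusted p = 0.999 and 0.754). Without 1 mouse, they ran from −0.47 (without mouse 1) to −0.025 (without mouse 3) at day 1 and from 0.030 (without mouse 2) to 0.27 (without mouse 3) at day 3. At day 1, 0% of 14776 genes were called, with 4.29% at an unadjusted p under 0.05, and 1.45% of 14943 genes were called at day 3 (14.7% unadjusted). Over both days, the sum differed by −0.06 ± 0.325 (SE, adjusted p = 0.983), with 9.4% of genes at an unadjusted p under 0.05. At day 7, the sum was 6298, 6786, and 5595 TPM on the sham side and 7036, 7022, and 7837 TPM on the denervated side, higher in 3 of 3 mice, while the summed muscle markers were lower in 3 of 3. Acta1, 1 of those markers, was higher in 3 of 3 mice, so the markers did not all move together. Relative to the mean log2 level of the 8 muscle markers, Tnnt3 was 1.63 to 1.91 above on the sham side and 2.22 to 2.30 above on the denervated side at day 7. At day 3, the corresponding ranges overlapped (1.76 to 2.09 and 1.63 to 2.14).

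The transcripts of other genes whose levels were most like those of Tnnt3-214 over the 18 samples were Plekhh1-203 (Pearson r = 0.945), Eda2r-201 (0.938), Chrnd-201 (0.936), Serpinb6a-202 (0.931), and Chrna1-201 (0.926), out of 31678. Chrnd and Chrna1 encode subunits of the muscle acetylcholine receptor. Among the 15 other Tnnt3 members that passed the same filter over all samples, Tnnt3-202 (r = 0.72) and Tnnt3-219 (0.71), a processed transcript that also holds the 39-base exon, were nearest, followed by Tnnt3-215 (0.583), Tnnt3-220 (0.574), and Tnnt3-225 (0.526), while Tnnt3-213 had r = −0.01 and Tnnt3-201 r = −0.19. For the Tnnt3 sum, the most similar genes were Tpm1 (0.979) and Myl1 (0.967), which encode a tropomyosin and a fast myosin light chain, then Apoo (0.965), Hfe2 (0.963), and Tpm2 (0.963). These correlations share libraries, sides of 1 mouse, and days, and are a description only.

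Genes of the thin filament were compared on gene sums. None of the 17 in the list was called by limma at day 1 or day 3 or over both days, when 0%, 1.45%, and 0.299% of all genes were called, with a median log2 difference at day 3 of 0.09 for the list and −0.01 for all genes. Tnni2 and Tnnc2, the fast troponin I and troponin C, differed at day 3 by 0.25 ± 0.157 and −0.31 ± 0.240 (SE, adjusted p = 0.535 and 0.622). Tnnt1, the slow skeletal troponin T, had 18.7 ± 10.3 and 28.4 ± 20.2 TPM on the sham and denervated sides at day 3 and 16.9 ± 4.07 and 55.8 ± 7.76 TPM at day 7 (SD, n = 3). Tnnt2, the cardiac troponin T that developing skeletal muscle also makes, had 13.7 ± 2.41 and 20.8 ± 5.27 TPM at day 7. Actc1, the cardiac actin, had 107 ± 93.4 and 14.2 ± 8.40 TPM at day 3 and differed by −2.56 ± 0.944 at day 3 (SE, adjusted p = 0.285, and 0.0393 blocked on mouse).

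Of 18 regulators of muscle splicing, 1 was called as higher at day 3, against 1.01% of all genes, and none was called as lower. None was called at day 1 or over both days. The log2 difference at day 3 was positive for 12 of the 18. Rbm24, an RNA-binding protein of striated muscle that promotes inclusion of muscle exons, rose from 24.2 ± 3.12 to 52.7 ± 10.3 TPM (SD, n = 3), a log2 difference of 1.10 ± 0.173 (SE, limma, adjusted p = 0.0434). That call was lost with values above 0 as the filter, with no variance trend, at equal sums, and when scaled to the muscle markers (adjusted p = 0.0573, 0.0674, 0.0990, and 0.122). It was also lost when blocked on mouse (adjusted p = 0.0846) and without mouse 2 or mouse 3 of day 3 (adjusted p = 0.490 and 0.328). Mbnl1 had 48.1 ± 2.77 and 44.9 ± 1.54 TPM at day 3 and 58.2 ± 4.59 and 58.0 ± 4.70 TPM at day 7, and its log2 difference at day 3 was −0.10 ± 0.085 (SE, adjusted p = 0.667). Mbnl2 differed by 0.17 ± 0.076 (adjusted p = 0.374) and Rbfox2 by 0.57 ± 0.096 (adjusted p = 0.0522). The medians at day 3 were 0.14 for the list and −0.01 for all genes.

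Of 10 genes of developing or denervated muscle, 8 were tested at day 3. Of these, 7 were called as higher, namely Chrng, Chrna1, Myog, Myod1, Ncam1, Mymk, and Runx1, against 1.01% of all genes. Myl4 was also higher in 3 of 3 mice but was not called (log2 difference 1.79 ± 0.478, SE, limma, adjusted p = 0.161). The list was chosen with earlier results of these data known, so its counts are not read against the share of all genes. Chrng and Mymk were below 1 TPM on every sham side of day 3 and passed the filter through the denervated samples alone, so both had to differ and are not support for that count. Myog, a myogenic transcription factor, rose from 4.65 ± 2.15 to 181 ± 17.1 TPM (adjusted p = 0.000887, 0.00611 blocked on mouse). Chrng, the fetal acetylcholine receptor gamma subunit, had 0.353 ± 0.0886 and 48.1 ± 21.8 TPM on the sham and denervated sides, given as a description only. The call of Ncam1 was lost when blocked on mouse (adjusted p = 0.0589). Each of the 7 calls was lost without mouse 2 and without mouse 3 of day 3, and that of Mymk also without mouse 1, while the log2 differences stayed between 1.78 and 6.10. At day 1, none of the 6 genes tested was called, and over both days Myog and Myod1 were, against 0.183% of genes called as higher. Myh3, the embryonic myosin heavy chain, stayed below the filter, with means of 0.329 TPM at day 3 and 0.862 TPM at day 7 on the denervated side.

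**Figure D5:**
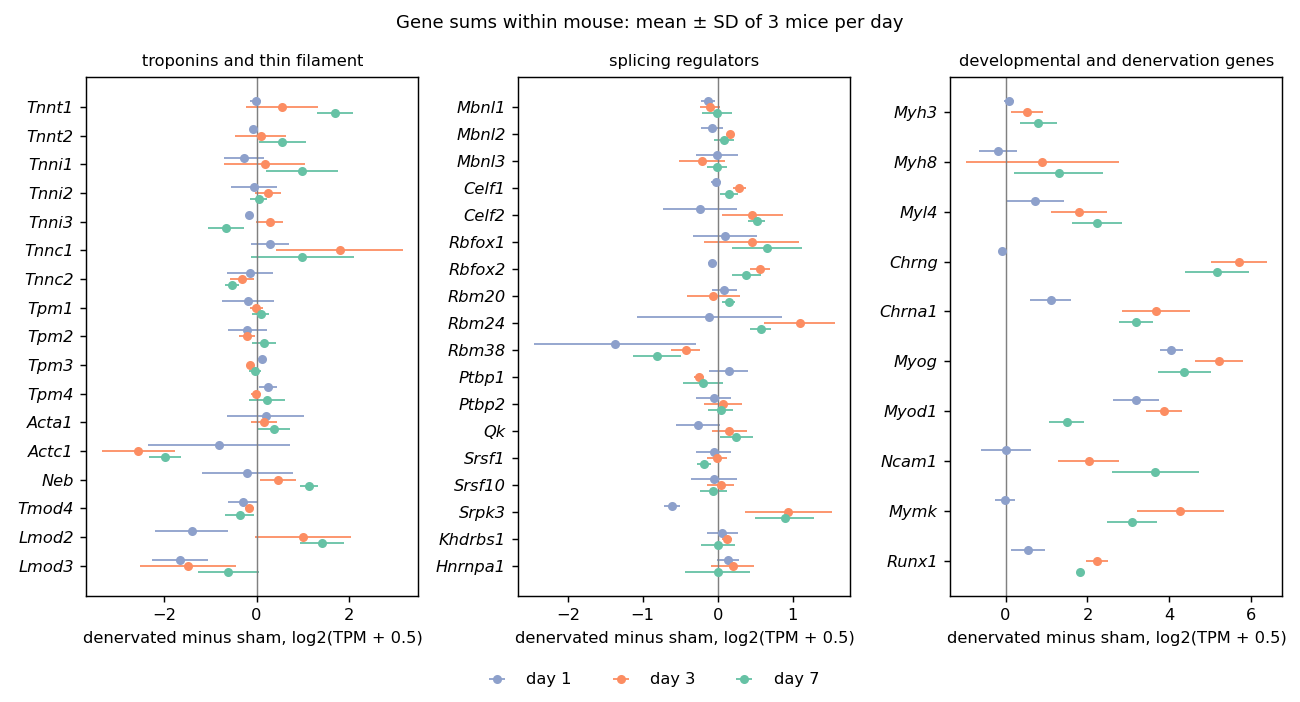
Within-mouse difference, denervated minus sham, of gene sums on the log2(TPM + 0.5) scale for 3 gene lists, as mean ± SD of 3 mice at days 1, 3, and 7. At day 7 the genes of developing or denervated muscle lie between 0.80 (Myh3) and 5.16 (Chrng), thin filament genes between −1.98 (Actc1) and 1.71 (Tnnt1), and splicing regulators between −0.81 (Rbm38) and 0.90 (Srpk3).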

How the data were processed

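RNA from 18 biopsies was sequenced by the study on an Illumina NextSeq 500 from TruSeq libraries. Per the study's methods and the submitters' processing notes, bases were called with bcl2fastq 2.17.1.14, duplicate reads were removed (ParDRe), adapters were trimmed (Fastp), and transcripts of the GRCm38 Ensembl cDNA set were quantified with kallisto 0.43.1 and loaded into sleuth. The authors deposited 1 table of TPM that sleuth had scaled between samples, so the values are a normalized signal (column sums 833186 to 1143839) and not read counts. Removing duplicates before counting can lower the highest levels more than the low ones. Day 7 columns and sample titles differ in wording and were matched by day, side, and run number.

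Rows were matched to GENCODE M21 (98.5% of rows), and values were summed over transcripts into 35150 genes. Stretches of 31 bases, the default k-mer of kallisto, were compared between the Tnnt3 transcripts only. An assumed fragment length of 180 bases was used for the depth estimate. Tests were fitted with limma 3.58.1 (R 4.3.3) after a log2 transform of TPM plus 0.5, for features with at least 1 TPM in 47% of the samples of a comparison, with Benjamini-Hochberg adjustment over all of them at 0.05. The share test used log2 of a transcript over the other transcripts of its gene. Exon shares were tested with the exact sign-flip permutation test over 6 mice (scipy 1.17.1). Both tests were run on simulated data with independent normal errors and large shifts. Nothing about how well either test suits these data is read from those runs. Alternatives were other pseudocounts and filters, no variance trend, a mouse block, other scalings, protein-coding transcripts alone, and leaving out each mouse. Transcripts described singly were Tnnt3-214, members with a mean share of at least 1%, and any member past the threshold; Tnnt3-210, Tnnt3-217, and Tnnt3-218 were named after their values were seen. The members and gene lists were chosen with earlier results of these data known. The titles give both sides of a mouse the same number, so the sides are paired by animal; the correlation of their deviations from the group means was 0.0376 to 0.336 over the 9 mice.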

Additional observations from a re-analysis of the deposited data

Results flagged for a closer look

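The share of Tnnt3-213 was 4.36 percentage points higher on the denervated side at day 1, in 3 of 3 mice, and 15.2 points lower at day 7, in 3 of 3 mice (4.36 and −15.2). The 12-base exon differed by 5.13 percentage points at day 1 and by −19.9 points at day 7, and the upstream 15-base exon by 8.66 and −16.0 points, each in 3 of 3 mice on either day. The 19-base exon at chr7:142507845-142507863 was higher in 3 of 3 mice at day 3 (0.026 percentage points) and lower in 3 of 3 mice at day 7 (−0.018 points), both within a share of less than 1%. These results are listed because every mouse of one day moved one way and every mouse of another day the opposite way. The differences between days were not tested, since day 7 chose the gene, and the exons and Tnnt3-213 are not independent of each other because Tnnt3-213 carries both the 12-base and the upstream 15-base exon.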

How the results depend on the processing

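Tnnt3-214 kept its direction and stayed short of the threshold in all 76 recomputed values over its 7 fits. No exon group was called under any alternative, including the test with no replicate block (0 of 13). The sign-flip test could hardly give a call, since its smallest possible p over 6 mice is 0.0313 before adjustment over 13 groups. Without 1 mouse, its lowest p was 0.0625, above 0.05 before adjustment. Nothing is therefore read from the absence of exon calls. With the replicate block, the transcripts called went from 98 to 0 at day 3 and from 1 to 0 for day 3 minus day 1; the pairing moved no other count of calls by over 1.5 times. A filter of values above 0 gave 48 transcripts at day 3, 8 over days 1 and 3, 4 for day 3 minus day 1, 1 gene at day 1, and 1 transcript by share at day 3. A filter of at least 5 gave 0 for day 3 minus day 1, 29 genes over both days (44 as reported), and 1 transcript by share at day 3. A pseudocount of 0.1 gave 0 for day 3 minus day 1 and 16 and 14 transcripts by share at days 1 and 3, and a pseudocount of 1 gave 2 for day 3 minus day 1. Without the trend, 2 transcripts were called for day 3 minus day 1 and 6 genes at day 1. Rescaling to equal sums gave 35 transcripts over both days (13 as reported), 2 for day 3 minus day 1, 2 genes at day 1, and 84 over both days, and rescaling to the muscle markers gave 26, 0, 9, and 29. Protein-coding transcripts alone gave 3 by share at day 3. Leaving out 1 mouse gave 0 to 0 transcripts at day 3, 2 to 187 over both days, 0 to 4 for day 3 minus day 1, 0 to 4 genes at day 1, 0 to 133 at day 3 (217 as reported), 5 to 277 over both days, and 0 to 2 transcripts by share over both days; the 187 and 277 came without mouse 1 of day 1. The cause of these shifts was not tested. Rescaling to the muscle markers gave a median of all transcripts at day 3 of −0.14 (−0.02 as reported) and turned the sign of log2 differences near 0: at day 1 Tnnt3-201 (0.039), Tnnt3-202 (0.066), and Tnnt3-213 (0.066), and at day 3 Tnnt3-206 (−0.10) and Tnnt3-224 (−0.10), which were −0.028 and −0.028 at equal sums. Leaving out 1 mouse also turned signs, with ranges at day 1 of −0.30 to 0.20 (Tnnt3-201), −0.67 to 0.35 (Tnnt3-202), −1.34 to 0.60 (Tnnt3-206), −0.54 to 0.10 (Tnnt3-211), −0.27 to 0.25 (Tnnt3-213), −1.56 to 0.0062 (Tnnt3-215), −0.20 to 0.41 (Tnnt3-216), −0.41 to 0.20 (Tnnt3-224), and −0.49 to 0.62 (Tnnt3-225), at day 3 of −0.048 to 0.87 (Tnnt3-201), −0.043 to 0.093 (Tnnt3-206), −0.39 to 0.12 (Tnnt3-213), −0.35 to 0.18 (Tnnt3-216), −0.32 to 0.56 (Tnnt3-217), −0.0079 to 0.52 (Tnnt3-221), and −0.092 to 0.22 (Tnnt3-224), of −0.15 to 0.082 for the Tnnt3 sum over both days, and of −1.49 to 2.94 percentage points for the 12-base exon. Levels of single transcripts without a stretch of their own rest on the quantification model, which no alternative here could vary.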
